A study of Mus musculus with 3 samples.

Results

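The MAP kinase feedback genes are 10 genes: the phosphatase genes Dusp1, Dusp4, Dusp5 and Dusp6, the Sprouty family genes Spry1, Spry2, Spry4 and Spred1, and the Ets factor genes Etv4 and Etv5. They were taken as every non-control spot whose gene name is one of these, which gave 12 probes of the 39429 on the array and 12 of its 43020 gene spots. Spred1 and Etv4 had 2 probes each, and the other 8 genes had 1. Gene expression was compared on 3 Agilent arrays of 2 colours between 3 primary diffuse-type gastric cancers and normal gastric mucosa of the mouse. Each tumour came from a 12-month-old mouse with the alleles Atp4b-Cre+, Cdh1loxP/loxP and Trp53loxP/loxP and was labelled in red (Cy5). The control, in green (Cy3), was 1 pool of 5 normal mucosae from mice of that age which were Atp4b-Cre- and carried the same loxP alleles on both chromosomes. The Atp4b promoter drives Cre in parietal cells, so the floxed genes are first lost in that lineage. The labels describe mechanical removal of the stroma in 30 mM EDTA for the normal mucosae and give no such step for the tumours.

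In the ERK pathway, a signal from a receptor tyrosine kinase passes through Ras, Raf and MEK to the kinase ERK, which enters the nucleus and switches on genes through Ets and other factors. Some of those genes act back on the pathway. The Dusp genes here encode phosphatases that inactivate MAP kinases, and Sprouty and Spred proteins block the signal between the receptor and Raf. Etv4 and Etv5 are Ets factors of the PEA3 group whose transcripts are commonly read, with Dusp6 and the Sprouty genes, as a sign of active receptor and ERK signalling. In the stomach, this pathway carries growth signals of the EGF and FGF families to the epithelium.

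The promoters of 4 members are shown because they cover both outcomes: Dusp1 and Etv5 passed the test described below, and Dusp5 and Dusp6 did not. Each is the 250 bases before the transcript start, from RefSeq on GRCm38.p6, read 5′ to 3′ on the strand of the gene. Of the 10 members, 7 had an entry, and Etv5 had 2, of which the one with the start furthest upstream is given. Capitals mark matches on either strand to TGACGTCA (the cyclic AMP response element), TGANTCA (AP-1), CGGAAG (an Ets core) or the CArG box bound by serum response factor, and no matches overlapped. The windows are chr17:26508473-26508722 (minus strand) for Dusp1, chr16:22439571-22439820 (minus strand) for Etv5, chr19:53528895-53529144 (plus strand) for Dusp5 and chr10:99262981-99263230 (plus strand) for Dusp6.
Dusp1: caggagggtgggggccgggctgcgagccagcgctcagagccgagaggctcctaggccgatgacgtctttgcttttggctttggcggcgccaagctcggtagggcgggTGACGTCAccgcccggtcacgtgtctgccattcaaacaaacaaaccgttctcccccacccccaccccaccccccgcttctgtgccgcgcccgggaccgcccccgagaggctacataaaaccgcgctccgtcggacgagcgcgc
Etv5: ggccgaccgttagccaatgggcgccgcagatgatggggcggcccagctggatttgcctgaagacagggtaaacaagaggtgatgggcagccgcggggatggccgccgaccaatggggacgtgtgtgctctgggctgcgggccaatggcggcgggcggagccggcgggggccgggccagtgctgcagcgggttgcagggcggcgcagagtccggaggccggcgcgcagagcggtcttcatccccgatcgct
Dusp5: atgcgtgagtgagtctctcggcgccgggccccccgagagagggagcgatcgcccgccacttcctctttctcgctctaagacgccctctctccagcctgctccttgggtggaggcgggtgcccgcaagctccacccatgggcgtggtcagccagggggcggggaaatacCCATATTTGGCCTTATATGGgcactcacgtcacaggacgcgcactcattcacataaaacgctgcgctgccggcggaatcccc
Dusp6: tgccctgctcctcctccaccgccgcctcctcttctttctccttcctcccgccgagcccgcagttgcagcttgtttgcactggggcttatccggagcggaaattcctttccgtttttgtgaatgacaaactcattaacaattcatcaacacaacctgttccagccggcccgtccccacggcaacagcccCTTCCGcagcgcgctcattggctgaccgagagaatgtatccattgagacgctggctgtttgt

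Dusp1 held 1 match to the cyclic AMP response element, which 1.55% of the 32851 promoters of this length in the table also held. Dusp5 held 2 adjoining CArG boxes, a motif found in 1.47% of promoters. Dusp6 held 1 match to the Ets core, as did Spred1 among the members not printed, and 13.6% of promoters held it. None of the 4 motifs was matched in the windows of Etv5, Spry1 or Spry2. TGANTCA, found in 6.75% of promoters, was matched in none of the 7. These matches describe letters in the window only, and factor binding was not measured.

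All 12 spots were free of outlier flags and saturation on every array. Over all gene spots, 64.0 to 66.8% were well above background in red and 52.5 to 54.2% in green. The log2 ratio of each tumour to the pool, after background correction and loess normalisation, was tested against 0 with limma across 19434 genes. A gene was called at a Benjamini-Hochberg adjusted p under 0.05 with a difference of at least 2-fold. The pool is 1 sample, so its repeated measurement holds no spread among normal mice, and the tumours were always in red, so dye and tissue cannot be told apart. In these tissue samples, fewer cells of a type and less RNA per cell cannot be told apart either. The label checks gave log2 ratios of -4.24 for Cdh1 and -6.83 for Atp4b, both called lower, and -0.21 for Trp53 (not called; limma adjusted p = 0.161).

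Of the 10 feedback genes, 9 were bright enough to be tested, 4 were called higher in the tumours (Etv4, Etv5, Dusp1 and Spry1) and 0 were called lower by limma. Without adjustment, 7 of the 9 had a p under 0.05, all above 0, against 56.3% of all genes in either direction and 29.8% above 0. Among all genes tested, 9.33% were called higher and 9.68% lower (19.0% in all). At any fold, 6 of the 9 had an adjusted p under 0.05, which 47.4% of all genes had. Of the 9, 7 were above 0 on all 3 arrays and 0 below 0 on all 3, against 40.7% and 34.3% of all genes. Dusp5 and Spry2 passed the brightness filter through the tumour channel alone, which favours ratios above 0. Dusp5 is among the 7 above 0 on all 3 arrays and the 7 with a p under 0.05. When brightness in both channels was required, 4 of 7 members and 9.54% of all genes were called higher. The median log2 ratio of the 9 was 0.96, against 0.05 over all genes.

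**Figure D1:**
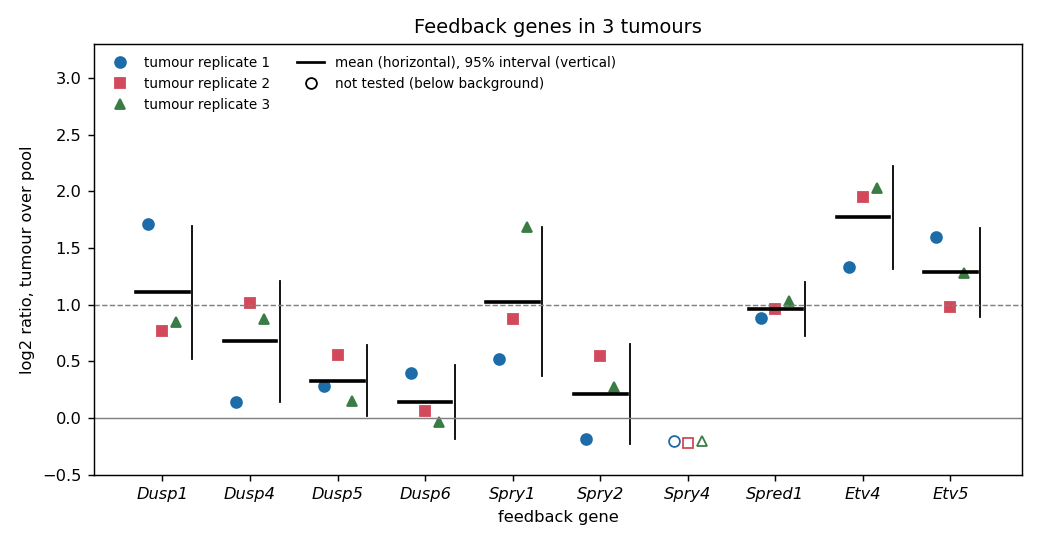
Log2 ratio of tumour over pool (vertical axis) for each feedback gene (horizontal axis) in tumour replicates 1, 2 and 3, with the mean as a horizontal bar, limma's 95% interval as a vertical bar and the 2-fold level as a dashed line. Etv4 lies above the 2-fold level in each tumour, from 1.34 to 2.03, whereas Dusp6 lies between -0.04 and 0.40, and Spry4 (open symbols) was below background.

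Both Ets factor genes were called higher. Etv4 encodes a PEA3 group activator that is induced by ERK and drives genes of invasion and growth. At its brighter probe (chromosome 11, 101631057 to 101631116 of mm9, the build of the files) the spot signal was 1309, 3379 and 3116 in the tumours of replicates 1, 2 and 3, against 191, 210 and 213 in the pool on the same arrays. The log2 ratios were 1.34, 1.95 and 2.03. Each tumour was therefore above the pool, with replicate 1 the lowest. The mean was 1.77 ± 0.38 (SD, n = 3), a 3.42-fold difference with a 95% interval of 2.49 to 4.68 (limma adjusted p = 0.00285), and 3.55% of all genes had a larger log2 ratio. A dimmer Etv4 probe (chromosome 11, 101631322 to 101631381) gave 0.54, 1.23 and 1.01, with replicate 1 again lowest but replicate 2 highest, and a mean of 0.92 ± 0.35 (SD, n = 3). In the fit of all 24164 probes it passed on p (limma adjusted p = 0.0125) but not on fold, where 8.44% of probes were called higher and 9.12% lower (17.6% in all). With Agilent's processed signals, which carry no offset, it had 1.66 and the brighter probe 1.94.

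Etv5, of the same PEA3 group, was measured by 1 probe (chromosome 16, 22381387 to 22381446). Its spot signal was 3958, 3953 and 4397 in the tumours and 469, 489 and 515 in the pool. Log2 ratios of 1.60, 0.98 and 1.28 placed replicate 1 highest and replicate 2 lowest, with all 3 tumours above the pool. The mean of 1.29 ± 0.31 (SD, n = 3) corresponds to 2.44-fold (95% interval 1.86 to 3.20; limma adjusted p = 0.00425). Etv4 and Etv5 kept their call under each of the 12 processing alternatives tried, with log2 ratios of 1.35 to 2.89 and 1.13 to 2.48. Replicate 1 had the lowest value of Etv4 and the highest of Etv5.

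Among the phosphatase genes, Dusp1 was the one called. It encodes a nuclear MAP kinase phosphatase that acts on p38 and JNK as well as ERK and is induced early by stress and growth factors. Its spot signal was 1089, 656 and 689 in the tumours and 116, 106 and 117 in the pool, at a probe for which the file lists 11 bases on chromosome 17 (26642526 to 26642536). Log2 ratios were 1.71, 0.77 and 0.85, so replicate 1 stood above the other two, which were each under 2-fold. The mean was 1.11 ± 0.52 (SD, n = 3), or 2.16-fold (95% interval 1.44 to 3.24; limma adjusted p = 0.0177). Without replicate 1 the log2 ratio was 0.81 (adjusted p = 0.0179), below the 2-fold level, and without replicate 3 it was 1.24 (adjusted p = 0.0612). Without replicate 2 it was still called, at 1.28 (adjusted p = 0.0389).

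Dusp4, a nuclear phosphatase of ERK, JNK and p38, passed on p but not on fold. The tumour signals were 411, 1187 and 842 and the pool signals 152, 151 and 142 at its probe on chromosome 8 (35882045 to 35882104). Its log2 ratios of 0.14, 1.01 and 0.87 left replicate 1 near the pool and the other two close to 2-fold above it. The mean was 0.68 ± 0.47 (SD, n = 3), or 1.60-fold (limma adjusted p = 0.04996). The p was on the threshold: it became 0.0663 from the values the authors deposited, 0.0856 from Agilent's processed signals, 0.0596 with centring on the tested genes and 0.0777 with no filter on dim probes. With median centring Dusp4 was called, at 1.67 (adjusted p = 0.00416). Leaving out replicate 1 gave 0.94 (adjusted p = 0.0140). Leaving out replicate 2 or 3 gave 0.51 and 0.58, with adjusted p of 0.176 and 0.192.

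Dusp6, the cytoplasmic phosphatase specific to ERK, was well above background throughout and had a ratio near 0. Its spot signals of 6995, 8839 and 8163 in the tumours and 1769, 1920 and 2151 in the pool gave log2 ratios of 0.40, 0.07 and -0.04 after loess. The tumours fell on both sides of 0, with replicate 1 highest. The mean of 0.14 ± 0.23 (SD, n = 3) had a 95% interval of -0.18 to 0.47 and did not pass (limma adjusted p = 0.378; chromosome 10, 98729985 to 98730044). This value depended on the normalisation: with each array centred on the median of its gene spots and no loess, Dusp6 was called at 1.49 (adjusted p = 0.000728), or 0.72 above the median of all genes, which that setting moved to 0.77. Agilent's processed signals gave 0.30 (adjusted p = 0.171).

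Dusp5, a nuclear phosphatase specific to ERK, was dim. The tumour signals were 52.6, 112 and 53.0 and the pool signals 35.5, 39.5 and 37.8, over local backgrounds of 31.0 to 36.0 in red and 20.0 to 24.0 in green (chromosome 19, 53615682 to 53615741). It was well above background in all 3 tumours and in the pool on 0 of 3 arrays. The mean normalised log2 signals were 6.38 in red and 6.05 in green. With the pool raised, where dimmer, to the lowest signal well above background, the tumours were 1.20-fold above it. This fold is for the mean of the 3 arrays and, being open to dye bias, is not a lower limit. The log2 ratio was 0.33 ± 0.21 (SD, n = 3), with single values of 0.28, 0.56 and 0.15 (limma adjusted p = 0.0782). With an offset of 0 it was called at 1.28 (adjusted p = 0.0146). With median centring it was 0.09, which is -0.68 relative to the median of all genes, so its direction against other genes flipped there.

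**Figure D2:**
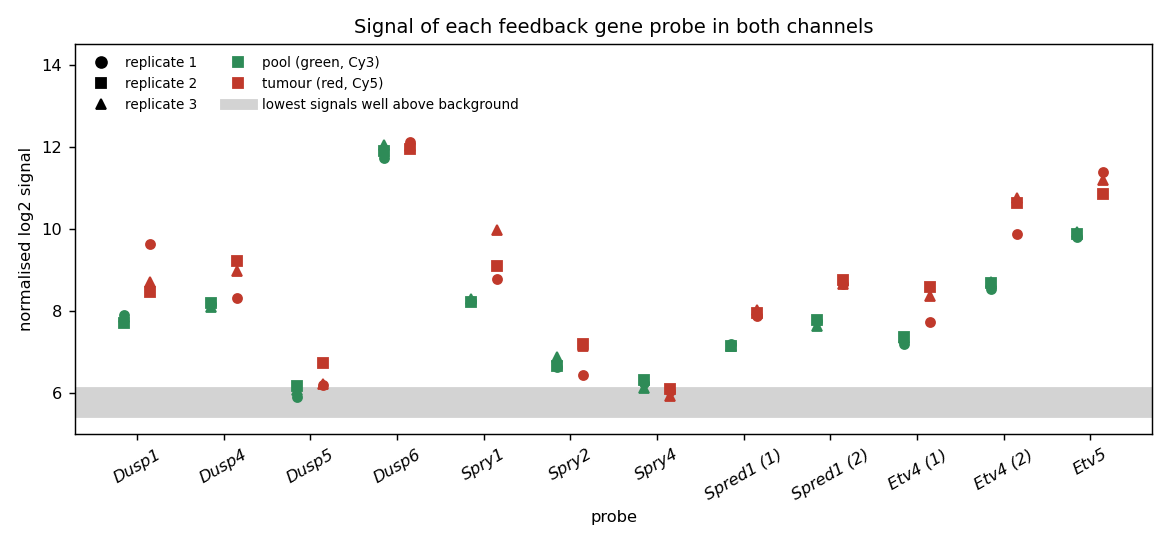
Normalised log2 signal (vertical axis) of the pool in green and the tumours in red for each of the 12 probes (horizontal axis), with 1 symbol for each array and a grey band from the lowest to the highest of the smallest signals well above background. Dusp5, Spry2 and Spry4 lie in or near the band, and signals of different probes are not comparable with each other.

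Of the Sprouty family, Spry1 was called. Its protein is induced by FGF and other growth factors and limits Ras activation. The signals were 581, 1090 and 1786 in the tumours and 157, 153 and 161 in the pool (chromosome 3, 37543403 to 37543462). Log2 ratios of 0.52, 0.87 and 1.69 showed a wide spread among tumours, with replicate 3 highest, over a pool that hardly varied (SD of 0.03 in normalised log2 green signal). The mean was 1.03 ± 0.60 (SD, n = 3), or 2.04-fold (95% interval 1.29 to 3.22; limma adjusted p = 0.0293). When replicate 3 was left out it was 0.70 (adjusted p = 0.0517), and when replicate 2 was left out it was 1.10 (adjusted p = 0.0820), neither of which was called. The call was also lost at 0.99 with centring on the tested genes and at an adjusted p of 0.0507 with no filter on dim probes.

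Spred1, which holds the Ras regulator neurofibromin at the membrane, lay just below the fold threshold and Spry1 just above it. The brighter Spred1 probe (chromosome 2, 117005906 to 117005965) had tumour signals of 526, 822 and 658 and pool signals of 108, 111 and 100.2. Its log2 ratios of 0.88, 0.97 and 1.04 were the most uniform of the tested members. The mean was 0.96 ± 0.08 (SD, n = 3), or 1.95-fold (95% interval 1.65 to 2.30; limma adjusted p = 0.00271). The dimmer probe (chromosome 2, 117004952 to 117005011) gave 0.68, 0.81 and 0.87, again with replicate 1 lowest. Spred1 was called at 1.20 with an offset of 0, at 1.18 with Agilent's processed signals, at 1.89 with median centring and at 1.00 without replicate 1.

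Spry2, the most widely studied Sprouty gene, was dim and did not pass. The signals of 72.1, 203 and 174 in the tumours and 55.3, 51.9 and 60.7 in the pool gave log2 ratios of -0.18, 0.55 and 0.27 (chromosome 14, 106291845 to 106291904). Replicate 1 was below the pool and the other two above it. The mean was 0.21 ± 0.37 (SD, n = 3; limma adjusted p = 0.337), and the pool was well above background on 2 of 3 arrays. Agilent's processed signals gave -0.37, 2.56 and 1.24 on the 3 arrays, a mean of 1.14 with an adjusted p of 0.158. With median centring Spry2 was -0.22 relative to the median of all genes. Spry4 was not well above background in either channel on any array, with signals of 42.4, 51.0 and 36.4 in red and 47.3, 50.6 and 45.9 in green (chromosome 18, 38745923 to 38745982), so no fold is given.

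For the 7 members that cleared the background on every array in red and in green, the mean log2 ratios ran, from high to low, Etv4, Etv5, Dusp1, Spry1, Spred1, Dusp4 and Dusp6. Dusp5 and Spry2 are left out of this order, since Dusp5 went from 0.33 to 1.28 with an offset of 0 and Spry2 from 0.21 to 1.14 with Agilent's processed signals. No 2 neighbours in this order had 95% intervals apart from each other. Etv4 (1.32 to 2.23) lay wholly above Spred1 (0.72 to 1.20), Dusp4 (0.14 to 1.21) and Dusp6 (-0.18 to 0.47). Differences between members were not tested. Each of the 9 means was above the median of all genes, except with median centring, where Dusp5 and Spry2 were below it, and without replicate 1, where Dusp6 was.

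**Figure D3:**
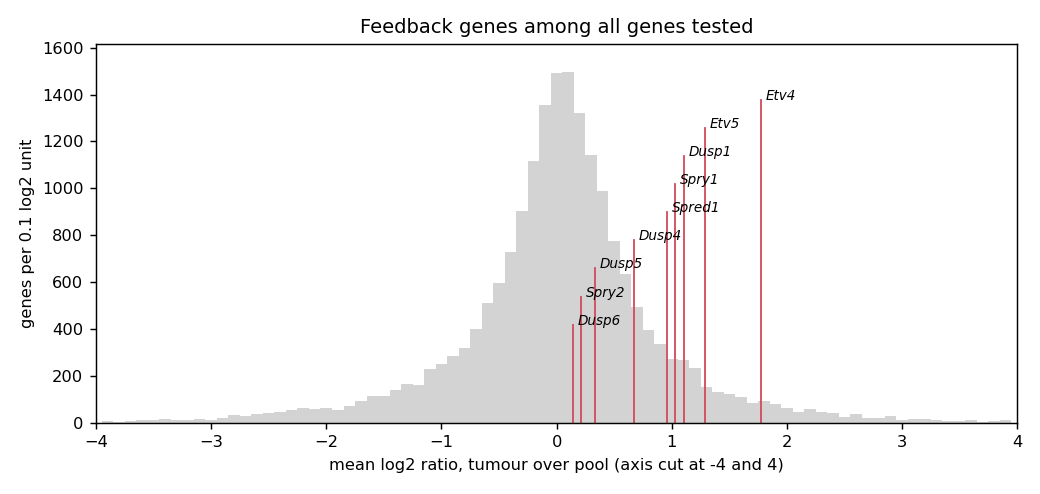
Number of genes tested (vertical axis) by mean log2 ratio of tumour over pool (horizontal axis, in bins of 0.1 from -4 to 4) with the 9 tested feedback genes as labelled lines whose heights only separate the names. Dusp6 sits near the centre of the distribution with 42.5% of genes above it, and Etv4 has 3.55% above it.

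No tumour was highest throughout. Replicate 1 had the highest log2 ratio of 3 members (Dusp1, Dusp6 and Etv5) and the lowest of 5 (Dusp4, Spry1, Spry2, Spred1 and Etv4). Replicate 2 was highest for Dusp4, Dusp5 and Spry2, and replicate 3 for Spry1, Spred1 and Etv4. The median over the 9 tested members was 0.52, 0.87 and 0.87 on replicates 1, 2 and 3. Spread between arrays was larger than the median SD of all genes (0.19) for 8 of 9 members, Spred1 being the exception. The normalised red signals of the tumours had SDs of 0.05 to 0.62 at these probes, and the green signals of the pool 0.03 to 0.16.

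**Figure D4:**
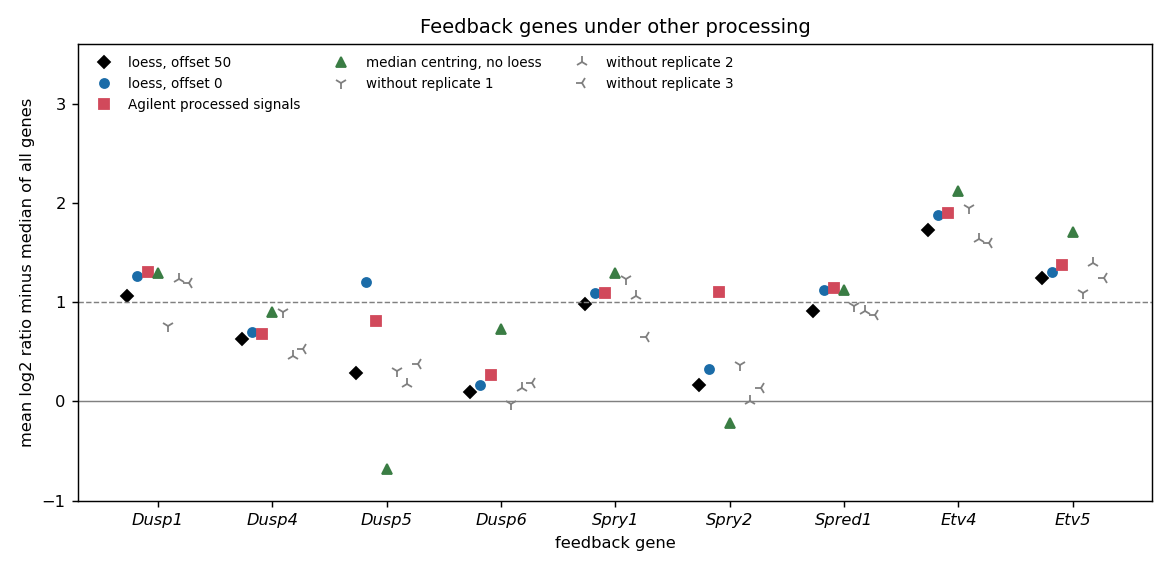
Mean log2 ratio minus the median of all genes (vertical axis) for the 9 tested feedback genes (horizontal axis) under 7 ways of processing, with the 2-fold level as a dashed line. Etv4 and Etv5 stay above it, Dusp5 ranges from -0.68 to 1.21, and Dusp6 reaches 0.72 with median centring.

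The lists of other pathway genes gave the setting of the 10, beside 9.33% of all genes called higher and 9.68% lower. Of 6 other MAP kinase phosphatase genes, 2 were called higher and 0 lower by limma, with a median log2 ratio of 0.70. Dusp2, an ERK phosphatase known from activated leukocytes, had 2.94, 2.83 and 2.16 (mean 2.64 ± 0.42, SD, n = 3), above each of the 9 tested feedback genes. Dusp9, which was not well above background in the pool, had a mean log2 ratio of 1.21 ± 0.27 (SD, n = 3), or 2.32-fold. Of the other Sprouty and Spred genes, Spred2 alone was bright enough and had 0.50 ± 0.27 (SD, n = 3; limma adjusted p = 0.0401). Of 8 other Ets factor genes, 2 were called higher and 0 lower, with a median of 0.45: Elk3, a ternary complex factor, at 2.20 ± 0.31 (SD, n = 3), and Ets1, with 1.71, 1.68 and 1.10 on the 3 arrays. Of 9 other feedback inhibitors of receptor tyrosine kinases, 2 were called higher and 1 lower. The EGF receptor inhibitor gene Errfi1 had 0.95, 2.19 and 0.99 (mean 1.38) and the FGF receptor inhibitor gene Il17rd 1.37, 0.91 and 0.93 (mean 1.07), while Lrig1, an ErbB inhibitor of epithelial stem cells, was at -1.22. Of 13 other ERK-induced transcripts, 2 were called higher, Ier3 at 1.63 ± 0.67 and Egr1 at 1.57 ± 0.31 (SD, n = 3), and 1 lower, Slco4a1 at -1.40. With median centring, 4 of 6 phosphatase genes, 7 of 8 Ets factor genes and 9 of 13 ERK-induced transcripts were called higher, as were 39.9% of all genes.

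The ERK cascade genes, a list that also holds inhibitors of the cascade, had ratios on both sides of the pool. Of 23 tested, 0 were called higher and 3 lower by limma, where 9.33% and 9.68% of all genes were. The median log2 ratio was -0.13, and 9 of the 23 were above 0. Among those called were the ribosomal S6 kinase gene Rps6ka1 (-1.20 ± 0.15) and Pebp1, which encodes an inhibitor of the cascade (-1.08 ± 0.28; SD, n = 3). With median centring 7 of the 23 were called higher and 0 lower, where 39.9% of all genes were called higher. The list median was then 0.06 above that of all genes. Of 11 p38 and JNK kinase genes 1 was called higher, Mapk12 at 1.10, and 1 lower, Mapk13 at -1.45. Among genes not called, Nras, which encodes a Ras protein, had log2 ratios of 0.14, 5.02 and 0.54, and it was singled out after its values were seen. Its spot signal of 48919 in the replicate 2 tumour compared with 896 and 1546 in the other two, and with 310 to 326 in the pool (chromosome 3, 102868451 to 102868510). Both other Nras probes were also high in replicate 2 alone, at 3.57 and 4.76. In that tumour Dusp4, Dusp5 and Spry2 had their highest ratios, and Dusp1 and Etv5 their lowest. Without it 3 members were called higher, Etv4, Etv5 and Dusp1, as were 8.54% of all genes. Whether the feedback genes followed Nras was not tested, since 1 tumour differs.

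**Figure D5:**
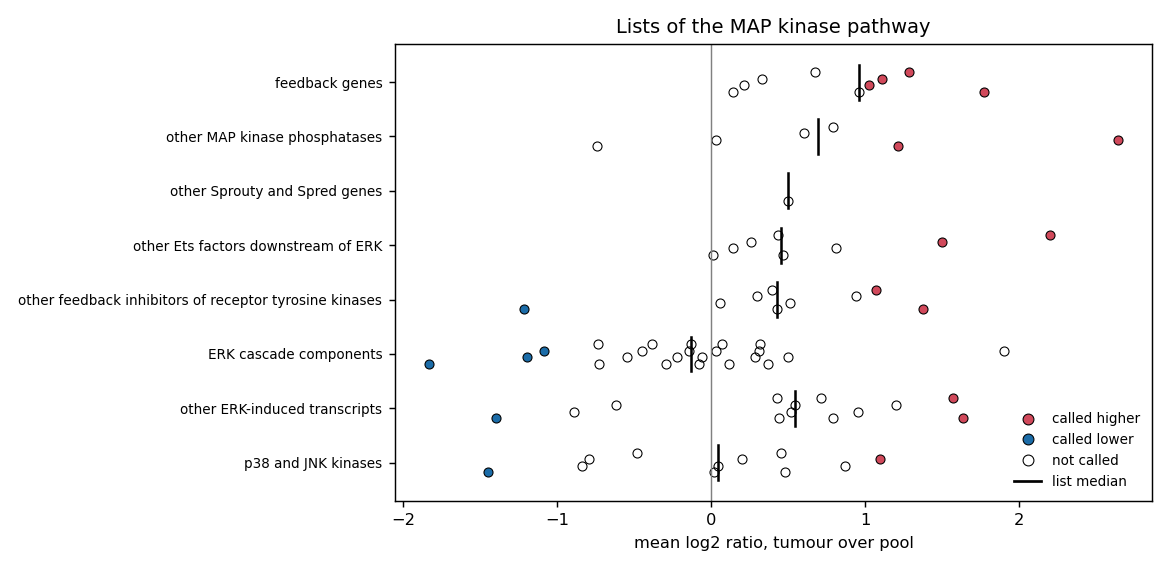
Mean log2 ratio of tumour over pool (horizontal axis) for each tested gene of 8 lists of the MAP kinase pathway (vertical axis), filled red where called higher and blue where called lower, with list medians as bars. The median is 0.96 for the feedback genes and -0.13 for the ERK cascade components, where the open point near 1.90 is Nras. With Agilent's processed signals the other phosphatase genes have a median of 1.63 against 1.14 for the feedback genes.

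Marker genes of other cell types moved with the same comparison. Of 8 fibroblast markers 7 were called higher (median log2 ratio 2.70). The log2 of their summed normalised signals, which the brightest markers dominate, was 15.5 to 17.3 in the tumours and 14.0 to 14.1 in the pool. Of 7 macrophage markers 5 were called higher (median 2.21; summed 14.3 to 14.4 against 12.1 to 12.5), and Cd68 was not well above background in the pool. Of 7 neutrophil markers 6 were called higher (median 4.34; summed 15.5 to 17.7 against 13.6), with Camp, Mmp8 and Ngp not well above background in the pool. The neutrophil median was 5.56, 3.54 and 3.58 on replicates 1, 2 and 3, and the medians of fibroblast and endothelial markers were likewise highest on replicate 1. The medians of parietal, chief and mucous cell markers, all negative, were highest there too. Those of smooth muscle, macrophage, T cell, B cell and general epithelial markers were highest on replicate 2, and none was highest on replicate 3. Called higher were 4 of 5 tested B cell, 3 of 6 T cell, 3 of 6 endothelial and 4 of 6 smooth muscle markers. All 6 parietal and all 7 mucous cell markers were called lower, as were 5 of 6 chief cell markers (the sixth, Cym, was called higher). The 7 general epithelial markers were split 3 higher and 3 lower, and those lower include Cdh1, which is floxed in these mice. The part of these cell types in the ratios of the feedback genes was not tested.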

How the data were processed

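RNA of 3 tumours (250 ng each, Cy5) and of 1 pool (Cy3) was hybridised to 3 arrays on 1 slide. The authors' deposited scanner files hold intensity values (mean spot signal, median local background, and processed signals, corrected for background, spatial trend and dye) and log10 ratios of red over green, per the file headers. They were made with Agilent Feature Extraction, for which the file headers give version 10.7.3.1 and, instead, the submitters' processing notes give 9.5.3. The authors' deposited value table gives the log2 ratio of each tumour to the pool, within 0.01 of the scanner's at 99.8% of filled probes on each array, with medians of -0.15, -0.13 and -0.11. Blank cells make up 48.4, 48.3 and 49.6% of its columns.

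With limma 3.58.1 under R 4.3.3, signals were corrected by normexp (offset 50) and normalised by loess within arrays. Flagged and control spots were left out and spots of a probe averaged. A probe was kept (24164 in all) if every array had it well above background in red, or every array in green, and a gene was its brightest kept probe. Ratios were tested against 0, two-sided, with Benjamini-Hochberg adjustment over all 19434 genes. The labels call the tumours biological replicates, and 3 arrays limit the precision. For Dusp5, the raised pool is the mean of, on each array, its own signal or the lowest signal well above background, whichever is higher. The fold from it, after loess and Aquantile, is open to dye bias and is not a lower limit. Named from each list were up to 3 called genes with the largest absolute log2 ratio, or the brightest where none was called; a few genes are not reported here. The 10 genes, the lists and the tests were chosen with earlier results of these data known. Probe positions are mm9, and probes were not placed within exons or UTRs. Protein sequences were not used here.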

Additional observations from a re-analysis of the deposited data

How the results depend on the processing

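Of the 9 tested members, each kept a log2 ratio above 0 in every alternative that gave it a value. The number of genes called was 3696 and became 5743 with an offset of 0, 6817 with Agilent's processed signals and 8304 with median centring, and 3436 to 3607 when 1 replicate was left out. With median centring 93.3% of called genes were higher, against 49.1%. Members called higher numbered 4, where 9.33% of all genes were called higher. They became 7 with median centring (39.9% of all genes) and 6 with an offset of 0 (16.4%). They became 5 with Agilent's processed signals (19.2%) and with the authors' values (12.1%). With centring on the tested genes (8.75%) and with no filter on dim probes (5.34%) they became 3. When 1 replicate was left out they numbered 2 to 4 (8.54 to 8.68% of all genes). No member was called lower in any setting. Probes of members called higher numbered 4, where 8.44% of all kept probes were called higher. They became 8 with an offset of 0, 7 both from the deposited values of the authors and from the processed signals of Agilent, and 9 with median centring. In those settings the share of all genes called higher rose too, as given above. Without 1 replicate the member probes called higher numbered 2 to 5, where 8.54 to 8.68% of all genes were called higher. The share of all probes called is not given for these settings, so the probe counts are not read as a result about the members. Without replicate 3 the 2 members called were Etv4 and Etv5, where 8.56% of all genes were called higher. The authors' values gave no result for Dusp5, Spry2 and Spry4, which lack a value on at least 1 array, and Spry4 entered the test only with no filter on dim probes, where it was not called. No paired analysis was possible because the series has 1 group of tumours against 1 pool. Signal close to background limits what Dusp5, Spry2 and Spry4 can show.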

Other observations

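The high Nras signal of the replicate 2 tumour was shared by neighbouring genes, a pattern noticed in the data and described without a test. Within 1500 kb of the Nras probe on chromosome 3 of mm9, 32 genes were tested. Over all genes tested, 53, or 0.273%, were at least 2 log2 units higher on replicate 2 than on either other array. In this window they included Nras, Sike1 (0.34, 3.22 and 0.04 on replicates 1, 2 and 3), Tspan2 (0.50, 3.58 and 0.01) and the planar polarity gene Vangl1 (1.23, 3.38 and 1.26). The nuclear receptor gene Nr1h5 had 1.97, 3.43 and 2.17, while Sycp1, which lies between Vangl1 and Nras, had 0.07, 0.27 and 0.09. To the right, Bcas2 at 114.2 kb (0.47, 0.10 and 0.45) and Trim33 at 294.1 kb (0.11, 0.34 and 0.12) had no such excess in replicate 2. DNA copy number was not measured on these arrays.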
